A study of Mus musculus with 22 samples.

Results

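Hmox1 and 9 other genes of the NRF2 pathway (Nqo1, Gclc, Gclm, Txnrd1, Srxn1, Slc7a11, Gsr, Nfe2l2 and Keap1) were followed over the 4 groups of libraries of a mouse locus coeruleus study. All 10 genes were among the 12596 genes of the deposited table. They were named by symbol, and Hmox1 was chosen by its measured level, which was high in the immunoprecipitated RNA of hTyr animals, so its values there are given as a description, with no test. The study asked how pigment made by tyrosinase changes the RNA of locus coeruleus neurons, the noradrenaline-producing cells of the brainstem that carry neuromelanin in people. Each of 11 mice gave 2 libraries: RNA on ribosomes pulled down by a green fluorescent tag (IP, labelled noradrenergic) and RNA from the same tissue before the pulldown (input, labelled total hindbrain).

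The 4 groups were hTyr IP (n = 5), EYFP IP (n = 6), hTyr input (n = 5) and EYFP input (n = 6). hTyr is human tyrosinase, the enzyme that starts pigment synthesis, and EYFP is a fluorescent protein infused as control. All animals shared the C57Bl/6 background and, per the series text, came from crossing Th-cre mice with Slc6a2-eGFP/Rpl10a mice. In these, the noradrenaline transporter gene's regulatory sequence drives a tagged ribosomal protein, so the pulldown is aimed at cells in which that transgene is active. The IP libraries also held glial RNA, as given below. Age, sex and the time between infusion and collection are not given in the sources used here. Each animal is called here by the label of its IP library (IP_501, for example), also where its input library is described.

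NRF2, the product of Nfe2l2, is a transcription factor that is held in the cytoplasm by KEAP1 and marked there for degradation through the ubiquitin ligase scaffold CUL3. Electrophiles and oxidants modify KEAP1, and NRF2 then gathers in the nucleus, pairs with small MAF proteins and binds antioxidant response elements near its target genes. Its targets make and recycle glutathione and thioredoxin, reduce quinones and break down heme, and in brain NRF2 activity is known to be stronger in astrocytes than in neurons. Hmox1 is also controlled by the heme-sensing repressor BACH1 and by other stress-activated factors.

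The antioxidant response element can be read in the sequence upstream of some of the 10 genes. Promoter windows (250 bases before to 50 after a transcription start, RefSeq, GRCm38.p6) were found for 7 of the 10 genes, with 9 starts in all. Hmox1, Gclc and Gsr had no entry. The core of the element, TGACNNNGC, was searched on both strands and was present in 4 of the 9 windows, one each of Gclm, Txnrd1 (1 of its 3 starts), Nfe2l2 and Srxn1, against 12.4% of all 32851 promoter windows. The Txnrd1, Gclm and Nfe2l2 matches lie 92, 134 and 240 bases before the start, and that of Srxn1 lies 28 bases after it. The core of the AP-1 site, TGANTCA, which can overlap an antioxidant response element, was present in 7.81% of all windows and, among these genes, only in that of Srxn1, at 102 and 45 bases before the start. A match describes letters, not a bound site. The stretches below are shown because they hold the matches upstream of the start; capitals mark the TGACNNNGC match (read on the opposite strand in Gclm and Txnrd1) or, in Srxn1, the 2 TGANTCA matches.
Gclm, chr3:122245397-122245456, plus strand: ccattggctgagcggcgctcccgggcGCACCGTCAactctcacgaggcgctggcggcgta
Txnrd1, chr10:82859088-82859147, plus strand: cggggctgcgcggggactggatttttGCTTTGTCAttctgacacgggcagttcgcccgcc
Nfe2l2, chr2:75704854-75704913, minus strand: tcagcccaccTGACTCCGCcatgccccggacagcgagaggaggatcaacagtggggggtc
Srxn1, chr2:152105404-152105503, plus strand: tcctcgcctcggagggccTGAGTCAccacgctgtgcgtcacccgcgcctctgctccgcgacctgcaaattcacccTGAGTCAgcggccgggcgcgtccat

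Values are log2 CPM (log2 of reads scaled to library size, with the authors' small offset), and a difference of 1 on this scale is close to a doubling. The recovered read totals lay between 12654489 and 25100142 per library. The reads carry no molecular identifiers, so a read number speaks of counting error only. Of 10 noradrenergic markers, all 10 were in the table and all 10 were higher in IP than in input in both treatments. Their median IP-minus-input difference was 1.95 in EYFP and 2.64 in hTyr. The IP libraries also held glial RNA: 11 astrocyte markers summed to between 3170 and 4505 CPM there, and 12 microglial markers to between 231 and 468 CPM. The median astrocyte sum was higher in IP than in input, at 4170 against 3070 CPM in EYFP and 4100 against 3040 in hTyr. By gene this list went both ways. In limma (adjusted p under 0.05) 4 of 11 were higher and 2 lower in EYFP, against 28.5% and 28.1% of all genes. In hTyr 5 were higher and 3 lower, against 27.4% and 27.0%. The median differences were 0.05 and 0.18. The median sum of 8 oligodendrocyte markers was lower in IP, at 6850 against 7680 CPM in EYFP and 7190 against 8030 in hTyr. The microglial medians were 334 against 325 CPM in EYFP and 379 against 332 in hTyr. The part of glial RNA in the IP-minus-input differences given below was not tested. Macrophage markers could be read only from Cd68 and Lyz2, since the other 7 of 9 on the list (Mrc1, Cd163, Lyve1, Pf4, F13a1, Ms4a7 and Ptprc) were not among the genes analysed here.

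Hmox1 (chr8:75093621-75100589, plus strand, mm10) encodes heme oxygenase-1, the inducible enzyme that splits heme into iron, carbon monoxide and biliverdin. In hTyr IP it stood at 6.03 in animal IP_501, 5.19 in IP_502, 4.29 in IP_508, 4.57 in IP_509 and 4.54 in IP_510. In EYFP IP the 6 libraries lay between 3.08 and 3.28, with a median of 3.21. Every hTyr IP library was above every EYFP IP library, with a gap of 1.01 between the groups, and the hTyr libraries were far more spread (4.92 ± 0.70, SD, n = 5) than the EYFP libraries (3.20 ± 0.07, SD, n = 6). These levels rest on 274 to 1144 reads of the gene per hTyr IP library and on 142 to 190 per EYFP IP library.

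The hTyr-minus-EYFP difference of Hmox1 in IP was 1.73 (SE 0.23), a 3.31-fold higher level. It was 1.27 when animals IP_501 and IP_502, the libraries with the highest level, were both left out. In bulk RNA, fewer cells of a type and less RNA per cell cannot be told apart, and the same holds for more cells and more RNA per cell. Of the 10 genes, 1 passed the threshold in this comparison (limma, Benjamini-Hochberg adjusted p under 0.05 over all genes), against 0.0556% of all genes, and 1 had hTyr and EYFP libraries that did not overlap, against 0.389% of all genes with non-overlapping higher levels. Both counts are Hmox1, whose level in this comparison chose it, and nothing is read from them.

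In input RNA, which did not take part in the choice, Hmox1 stood at 3.12 in animal IP_501, 3.38 in IP_502, 3.22 in IP_508, 3.15 in IP_509 and 3.54 in IP_510 of the hTyr group. The EYFP input libraries lay between 2.65 and 3.21, with a median of 3.11. The groups overlapped, although 3 of 5 hTyr libraries were above all EYFP libraries. The difference was 0.24 (SE 0.12) and did not pass the test (limma adjusted p = 0.99). Hmox1 was the farthest from 0 of the 10 genes here, and the animal with the highest IP level, IP_501, had the lowest input level of the 5.

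**Figure D1:**
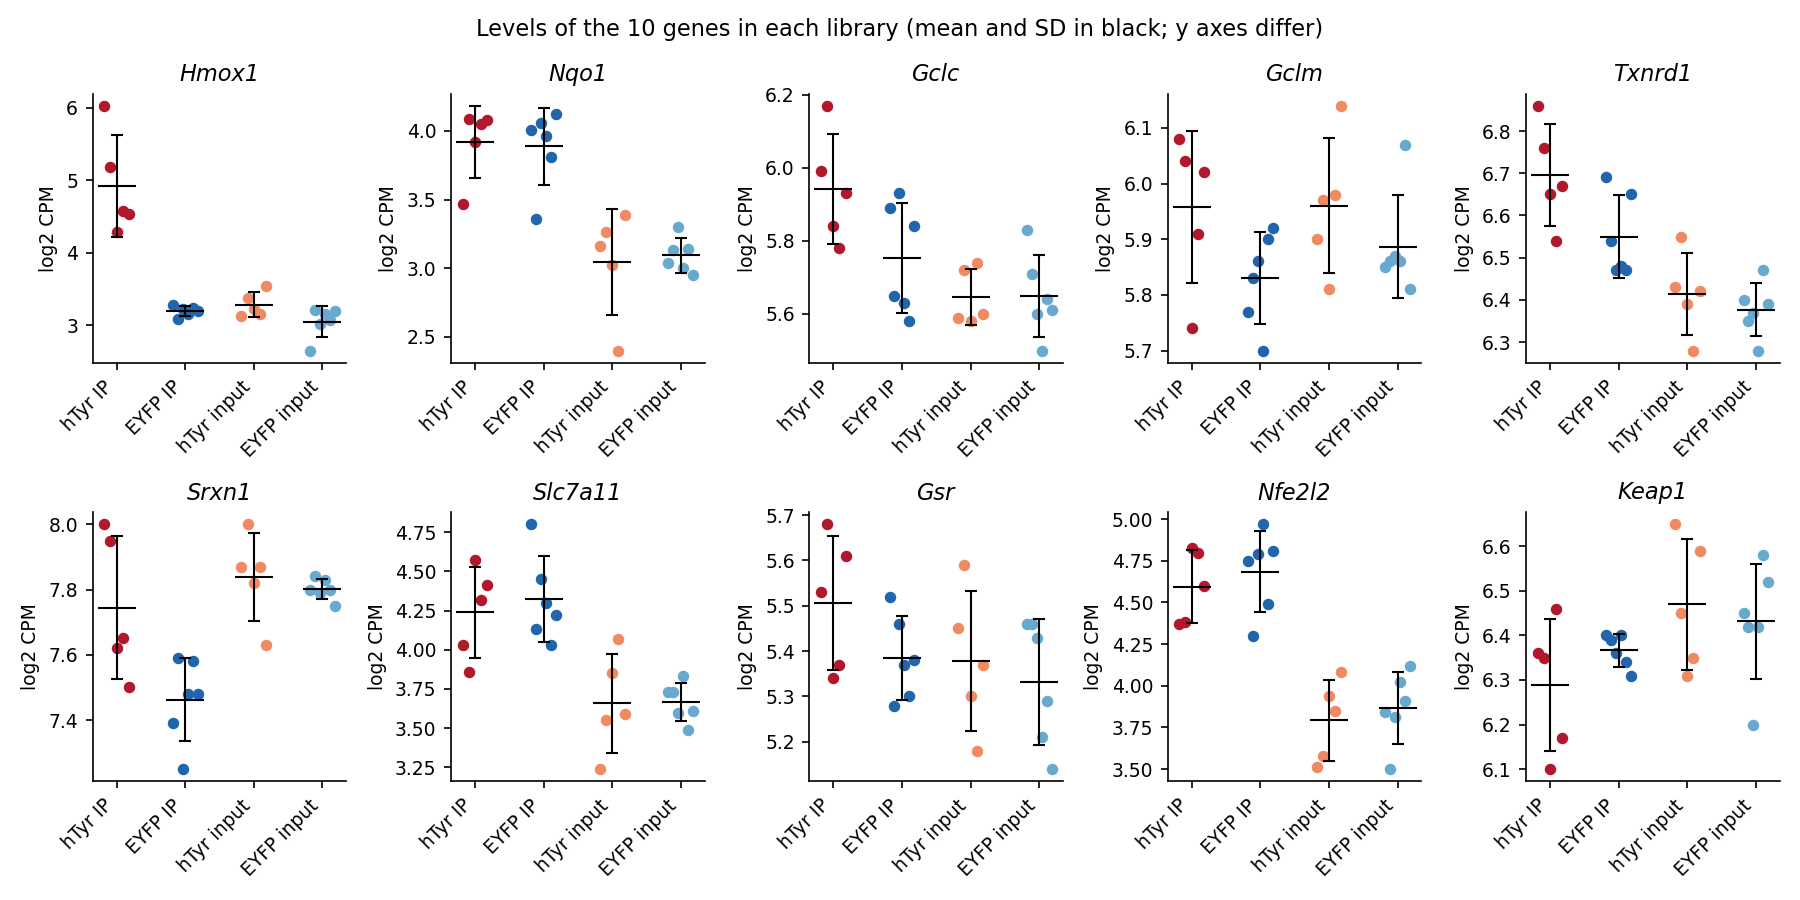
Level of each of the 10 genes in log2 CPM (y axis, scaled per gene) in every library of the 4 groups (x axis); points are libraries and black bars the mean and SD. Hmox1 separates hTyr IP (4.29 to 6.03) from the other groups (2.65 to 3.54), while Nqo1, Nfe2l2 and Slc7a11 follow IP against input rather than treatment.

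Within animals, the 5 hTyr mice had Hmox1 higher in IP than in input by 2.90 in IP_501, 1.81 in IP_502, 1.07 in IP_508, 1.41 in IP_509 and 0.99 in IP_510. In the EYFP mice this difference lay between -0.13 and 0.64, with a mean of 0.15 ± 0.27 (SD, n = 6). Thus every hTyr animal exceeded every EYFP animal. In EYFP mice, Hmox1 did not pass the test of IP against input (difference 0.15, SE 0.11; limma adjusted p = 0.26). In hTyr mice the difference was 1.64 (SE 0.24), and the hTyr effect in IP exceeded that in input by 1.49 (SE 0.28). Both of these last values use the hTyr IP libraries and are descriptions. In this last contrast 0 of 10 genes passed the threshold in limma, against 0.00794% of all genes, with 2 at an unadjusted p under 0.05 (Hmox1 and Srxn1) and 0 by voom. With the animal as replicate block 1 of 10 passed (Hmox1), against 0.0397% of all genes. This contrast holds the hTyr IP libraries that chose Hmox1, and nothing is read from these counts.

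Marker levels moved with Hmox1 among the hTyr IP libraries. The noradrenergic markers summed to 2099 CPM in animal IP_501, 1280 in IP_502, 742 in IP_508, 845 in IP_509 and 911 in IP_510. Animals IP_501 and IP_502 were thus highest in both, and IP_508 lowest in both. The microglial markers ran the other way, with 272 CPM in IP_501, 245 in IP_502, 468 in IP_508, 379 in IP_509 and 429 in IP_510. So did the oligodendrocyte markers, with 6001, 6195, 8401, 7193 and 7953 CPM in the same order. The astrocyte, macrophage and blood sums were also lowest in IP_501 and IP_502 among the hTyr IP libraries. Among EYFP IP libraries the noradrenergic sum lay between 609 and 1291 CPM. The EYFP library at 1291 CPM (animal IP_504) held Hmox1 at 3.28. Of the 53 markers of the noradrenergic, astrocyte, microglial, macrophage, oligodendrocyte, endothelial and blood lists, 0 passed the threshold between hTyr and EYFP in IP in limma (3 at an unadjusted p under 0.05 and 0 by voom). The share over all genes in IP was 0.0556%. In input 1 passed, Slc6a2, which was lower in hTyr, against 0.00794% of all genes. It was the only gene of all 12596 that passed there, and 0 genes passed with one spread over all libraries. When each animal was left out in turn, 0 to 2 genes passed. Slc6a2 is also the gene whose regulatory sequence drives the pulldown tag. The median hTyr-minus-EYFP difference in IP was 0.32 for noradrenergic, 0.28 for endothelial and 0.06 for microglial markers. The 5 endothelial markers in the table (7 written; Tek and Cdh5 were not among the genes analysed here) summed to 63.5 CPM in IP_501, 27.2 in IP_502, 64.1 in IP_508, 58.9 in IP_509 and 70.9 in IP_510, against 37.9 to 51.9 CPM in EYFP IP. Thus 4 of 5 hTyr libraries were above all EYFP libraries, and IP_502, with the next to highest Hmox1, was below them all. The part of these markers in the level of Hmox1, between treatments or among hTyr animals, was not tested.

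**Figure D2:**
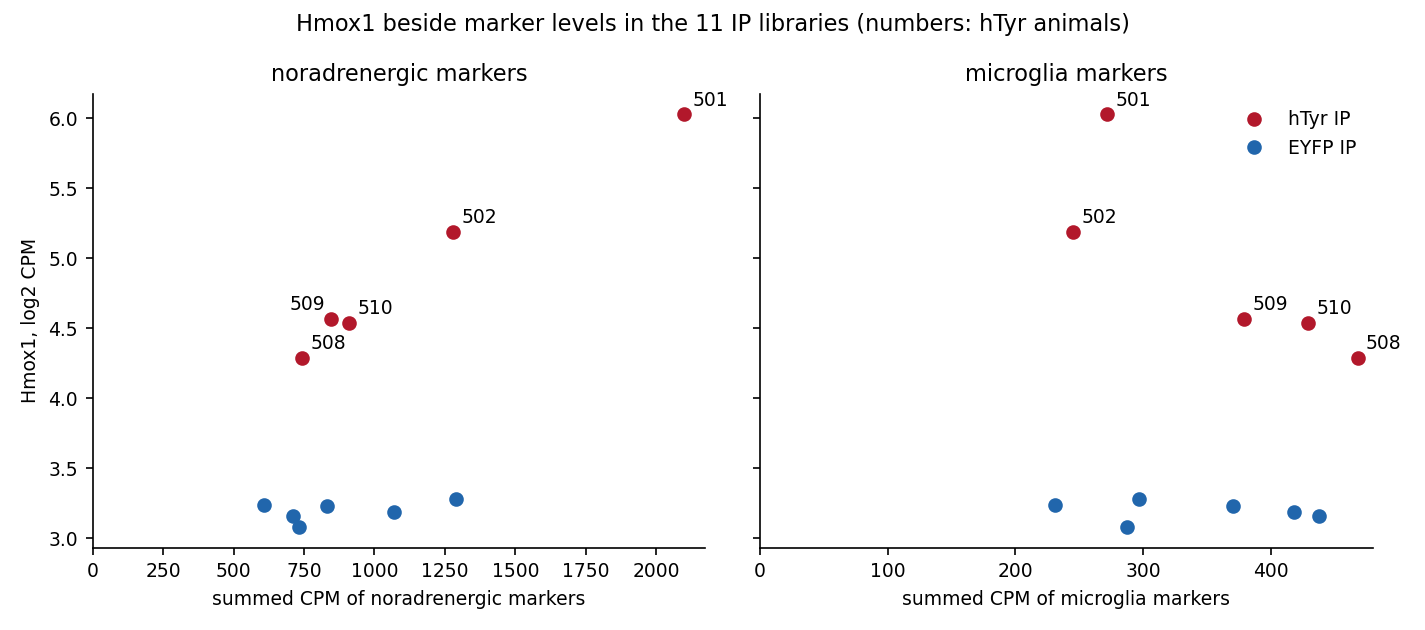
Hmox1 in log2 CPM (y axis) against the summed CPM of a marker list (x axis, one panel per list) in the 11 IP libraries, with hTyr animals numbered. In EYFP libraries Hmox1 lies between 3.08 and 3.28 and the noradrenergic sum between 609 and 1291 CPM. In hTyr libraries Hmox1 lies between 4.29 and 6.03 and the noradrenergic sum between 742 and 2099 CPM.

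Slc7a11 (chr3:49892526-50443614, minus strand) encodes the cystine-importing subunit xCT of the exchanger that supplies cysteine for glutathione. Its IP level was 4.03 in animal IP_501, 3.86 in IP_502, 4.57 in IP_508, 4.32 in IP_509 and 4.41 in IP_510, against 4.03 to 4.80 (median 4.26) in EYFP. The groups overlapped, with a difference of -0.08 (SE 0.15). In input it stood at 3.24, 3.55, 3.85, 4.07 and 3.59 in the hTyr animals in the same order and between 3.49 and 3.83 in EYFP. Its IP level exceeded the input level in every animal of both treatments. The IP-minus-input difference was 0.66 (SE 0.12; limma adjusted p = 0.000185) in EYFP, with no overlap, and 0.58 (SE 0.16; limma adjusted p = 0.00651) in hTyr, with overlap. Its partner chain Slc3a2 differed by 0.13 between EYFP IP and input (limma adjusted p = 0.161).

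Gclc (chr9:77754535-77794485, plus strand) encodes the catalytic subunit, and Gclm (chr3:122245557-122270732, plus strand) the modifier subunit, of glutamate-cysteine ligase, the rate-limiting enzyme of glutathione synthesis. Gclc in hTyr IP was 5.99 in animal IP_501, 6.17 in IP_502, 5.84 in IP_508, 5.78 in IP_509 and 5.93 in IP_510, against 5.58 to 5.93 (median 5.75) in EYFP IP. Gclm in the same order was 6.08, 6.04, 5.74, 5.91 and 6.02, against 5.70 to 5.92 (median 5.85). The groups overlapped for both genes, and for each 3 of 5 hTyr libraries were above all EYFP libraries. The hTyr-minus-EYFP differences were 0.19 (SE 0.09) for Gclc and 0.13 (SE 0.08) for Gclm. Exons of Gclm overlap those of Gm17494 on the opposite strand and Gm6061 on the same strand, and whether the counting used strand is not given in the sources used here, so its reads could be shared.

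Between IP and input, Gclc differed by 0.30 in hTyr (SE 0.09; limma adjusted p = 0.00988), where the libraries did not overlap, and by 0.11 in EYFP (SE 0.08; limma adjusted p = 0.26). The 2 effects differed by 0.19 (SE 0.12), a value given with no test. Without animals IP_501 and IP_502 the hTyr difference of Gclc was 0.21 (limma adjusted p = 0.118). Gclm did not pass in either treatment (limma adjusted p = 0.444 in EYFP and 0.993 in hTyr). Gss, which adds glycine to complete glutathione, was 0.59 higher in EYFP IP than in input (SE 0.08; limma adjusted p = 2.31e-05).

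Gsr (chr8:33652523-33698163, plus strand) encodes glutathione reductase, which returns oxidised glutathione to its reduced form. Its hTyr IP levels were 5.53, 5.68, 5.34, 5.37 and 5.61 in animals IP_501, IP_502, IP_508, IP_509 and IP_510, against 5.28 to 5.52 (median 5.38) in EYFP IP. The groups overlapped, with 3 of 5 hTyr libraries above all EYFP libraries and a difference of 0.12 (SE 0.09). Gsr did not pass the test of IP against input in EYFP (0.05, SE 0.07; limma adjusted p = 0.566) or hTyr (0.13, SE 0.10; limma adjusted p = 0.295).

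Srxn1 (chr2:152105516-152111376, plus strand) encodes sulfiredoxin, which repairs over-oxidised peroxiredoxins. It stood at 8.00 in animal IP_501, 7.95 in IP_502, 7.62 in IP_508, 7.65 in IP_509 and 7.50 in IP_510 of hTyr IP, and between 7.25 and 7.59 (median 7.48) in EYFP IP. It came next after Hmox1 in the size of the difference, 0.28 (SE 0.10), with 4 of 5 hTyr libraries above all EYFP libraries, and IP_510 inside their range. Animals IP_501 and IP_502 were again the highest, and without them the difference was 0.13. In input the gene differed by 0.04 (SE 0.06; limma adjusted p = 0.99) between treatments.

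Srxn1 was also the only one of the 10 genes that was lower in IP than in input past the threshold, in EYFP, with a difference of -0.34 (SE 0.06; limma adjusted p = 0.000292). All 6 EYFP animals had the IP level below the input level (differences of -0.54 to -0.22), and the libraries did not overlap. In hTyr the difference was -0.09 (SE 0.10; limma adjusted p = 0.451), with 4 of 5 animals below 0. The treatment effect in IP exceeded that in input by 0.25 (SE 0.12), a value that shares the IP contrast with the choice of Hmox1 and is a description.

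Txnrd1 (chr10:82833951-82897712, plus strand) encodes the cytosolic thioredoxin reductase. Its hTyr IP levels were 6.86, 6.76, 6.65, 6.54 and 6.67 in animals IP_501, IP_502, IP_508, IP_509 and IP_510, against 6.47 to 6.69 (median 6.51) in EYFP IP. The groups overlapped, with 2 of 5 hTyr libraries (IP_501 and IP_502) above all EYFP libraries and a difference of 0.15 (SE 0.08). Between IP and input it differed by 0.17 in EYFP (SE 0.06; limma adjusted p = 0.0262) and by 0.28 in hTyr (SE 0.08; limma adjusted p = 0.00901). Both calls depended on the libraries or the scaling. The EYFP call was lost after quantile normalization (adjusted p = 0.0622), after median centring (0.106) and without animal IP_504 (0.0787), IP_507 (0.0583) or IP_512 (0.0869), and the hTyr call was lost without animals IP_501 and IP_502 (0.0523). Its mitochondrial paralog Txnrd2 was 0.25 higher in EYFP IP than in input (SE 0.08; limma adjusted p = 0.0112).

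Nqo1 (chr8:107388225-107403206, minus strand) encodes a quinone reductase that passes electron pairs to quinones, a class that includes oxidation products of catecholamines. In hTyr IP it stood at 3.47 in animal IP_501, 4.09 in IP_502, 3.92 in IP_508, 4.05 in IP_509 and 4.08 in IP_510. EYFP IP lay between 3.36 and 4.12 with a median of 3.98. The groups overlapped fully, with a difference of 0.03 (SE 0.15), and animal IP_501, the highest for Hmox1, was the lowest of the hTyr group for Nqo1. In input the treatments differed by -0.05 (SE 0.15; limma adjusted p = 0.994).

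The separation of Nqo1 was between IP and input. EYFP IP libraries were all above EYFP input libraries, which lay between 2.95 and 3.30, by 0.79 on average (SE 0.12; limma adjusted p = 6.19e-05). hTyr IP libraries were likewise all above hTyr input libraries (2.40 to 3.39), by 0.87 (SE 0.18; limma adjusted p = 0.000658). All 11 animals had the higher level in IP, and the 2 treatment effects differed by 0.08 (SE 0.22).

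Of the regulators, Nfe2l2 (chr2:75675513-75704641, minus strand) encodes NRF2 itself. Its hTyr IP levels were 4.37, 4.38, 4.83, 4.80 and 4.60 in animals IP_501, IP_502, IP_508, IP_509 and IP_510, against 4.30 to 4.97 (median 4.77) in EYFP IP. The groups overlapped fully and differed by -0.09 (SE 0.13), and the animals highest for Hmox1, IP_501 and IP_502, were here the lowest of the hTyr group. NRF2 is mainly set by protein turnover, which these libraries do not measure. Nfe2l2 had the largest IP-minus-input difference of the 10 genes in EYFP, 0.82 (SE 0.12; limma adjusted p = 3.64e-05), and stood 0.80 higher in hTyr (SE 0.14; limma adjusted p = 0.000108). IP and input libraries did not overlap in either treatment, and the gene was higher in IP in all 11 animals.

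Keap1 (chr9:21229730-21239361, minus strand) encodes the sensor that holds NRF2 back. Its hTyr IP levels were 6.36, 6.35, 6.10, 6.46 and 6.17 in animals IP_501, IP_502, IP_508, IP_509 and IP_510, against 6.31 to 6.40 (median 6.37) in EYFP IP. The difference was -0.08 (SE 0.08), and hTyr libraries lay both above and below the narrow EYFP range. IP against input did not pass in EYFP (-0.07, SE 0.07; limma adjusted p = 0.389) or in hTyr (-0.18, SE 0.09; limma adjusted p = 0.116). In hTyr it passed under 3 alternatives: quantile normalization (-0.23, limma adjusted p = 0.0425), median centring (-0.25, 0.0373) and leaving out animal IP_509 (-0.25, 0.0494). Keap1 overlaps the antisense gene Gm16754, so its reads could be shared.

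**Figure D3:**
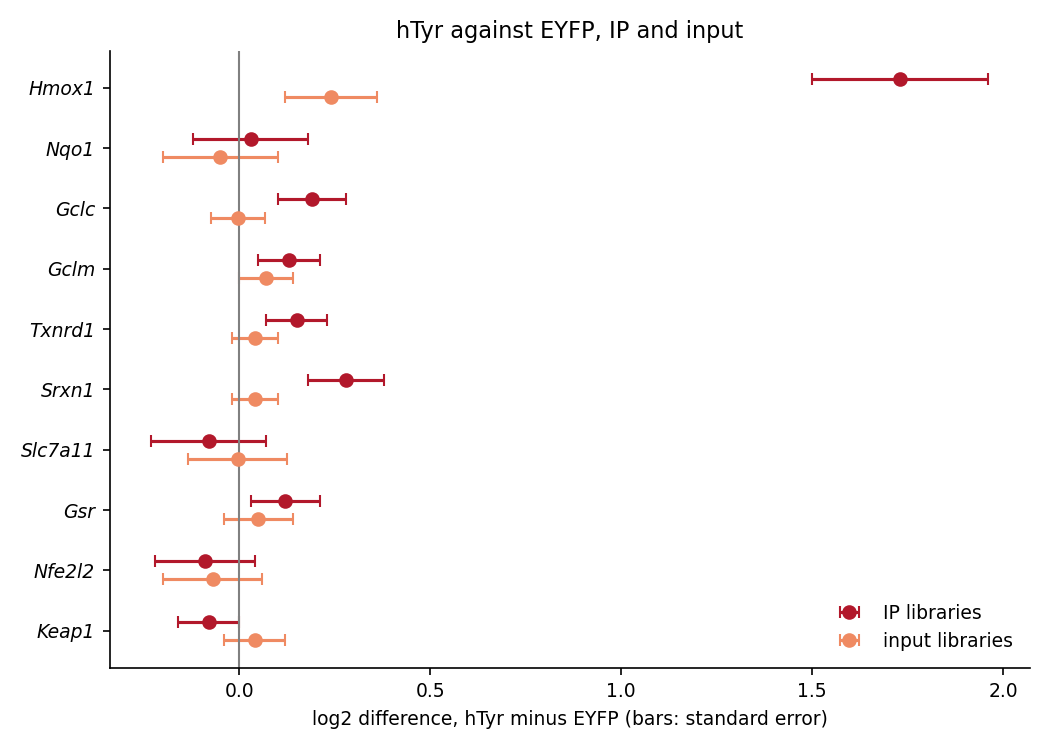
Difference hTyr minus EYFP in log2 CPM (x axis) for each of the 10 genes (y axis), in IP and in input; bars are standard errors. Hmox1 in IP stands at 1.73, the other 9 genes lie between -0.09 and 0.28 in IP, and all 10 lie between -0.07 and 0.24 in input.

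Over the 10 genes, 7 had a positive and 3 a negative hTyr-minus-EYFP difference in IP. The median was 0.13, beside -0.01 over all genes. An unadjusted p under 0.05 was reached by 2 genes (Hmox1 and Srxn1), both higher in hTyr. Over all 12596 genes it was reached by 363 higher and 417 lower. Hmox1 was chosen by its level in this comparison, and nothing is read from these counts. In input 0 of 10 passed the threshold in limma, against 0.00794% of all genes, and 0 passed by voom. An unadjusted p under 0.05 was reached by 0 of 10, against 125 higher and 257 lower over all 12596 genes. No gene had non-overlapping input groups, against 0.0953% of all genes for higher and 0.0794% for lower levels in hTyr. The median in input was 0.04, beside -0.01 over all genes, and the 9 genes other than Hmox1 lay between -0.07 and 0.07.

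For IP against input, 4 of 10 genes were higher (Nfe2l2, Nqo1, Slc7a11 and Txnrd1) and 1 lower (Srxn1) in EYFP, against 28.5% of all genes higher and 28.1% lower. In hTyr, 6 of 10 were higher and 0 lower, against 27.4% and 27.0%. The 6 were Hmox1, whose hTyr IP libraries chose it, and Nqo1, Nfe2l2, Slc7a11, Gclc and Txnrd1. The share of genes that passed in either direction, 5 of 10 in EYFP and 6 of 10 in hTyr, was near the share over all genes, 56.5% and 54.4%. In EYFP, 3 of 10 genes did not overlap and were higher, against 16.7% of all genes, and 1 was lower, against 13.4%. In hTyr 4 of 10 did not overlap and were higher, against 20.7%, and 0 were lower, against 16.8%. The median of the 10 genes was 0.13 in EYFP and 0.29 in hTyr, beside -0.03 and -0.04 over all genes.

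**Figure D4:**
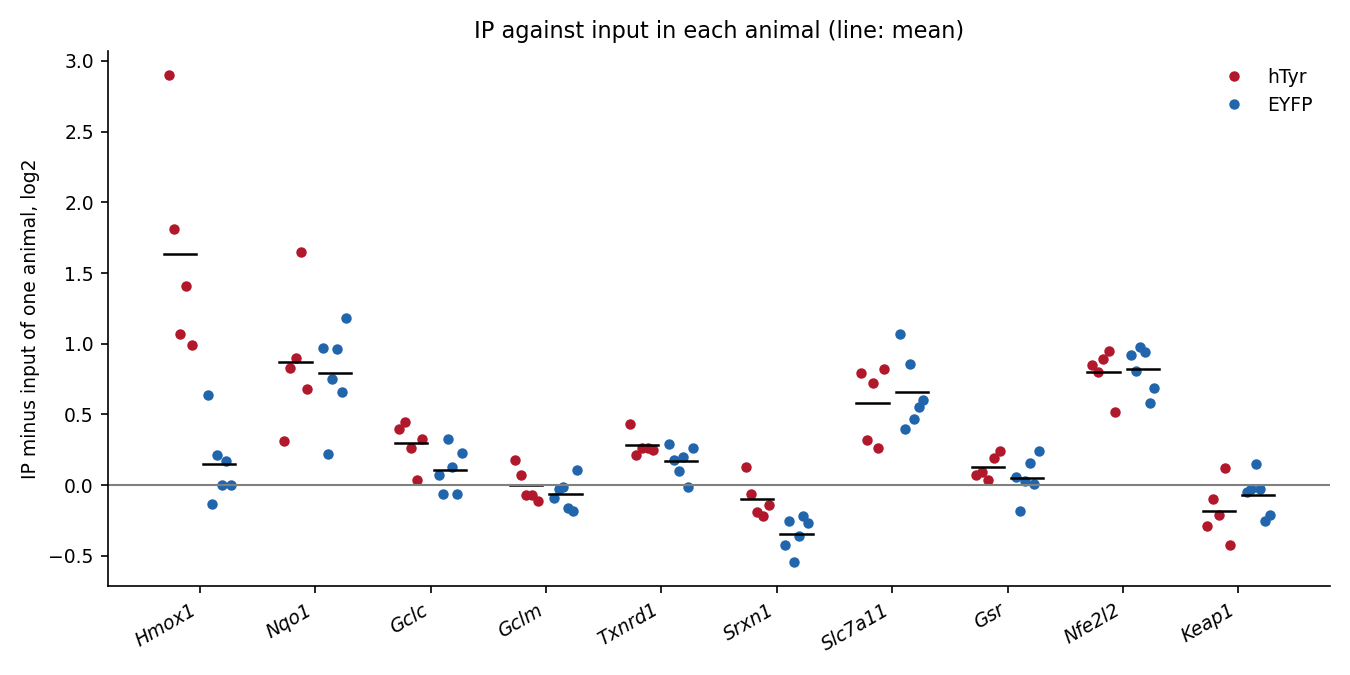
IP minus input of one animal in log2 CPM (y axis) for each of the 10 genes (x axis), with points for the 5 hTyr and 6 EYFP animals and a line at each mean. Nqo1, Slc7a11 and Nfe2l2 lie above 0 in all 11 animals, Srxn1 lies below 0 in all 6 EYFP animals, and Hmox1 separates the treatments (0.99 to 2.90 against -0.13 to 0.64).

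Levels of different genes were compared per kilobase of exon (CPM per kb, mean over libraries, GENCODE M21 lengths over the union of a gene's exons, which understates genes with long alternative ends). Srxn1 was highest in all 4 groups, with 62.58 ± 5.38 CPM per kb in EYFP IP (SD, n = 6) and 76.66 ± 11.64 in hTyr IP (SD, n = 5), and Slc7a11 was lowest, with 1.45 ± 0.30 and 1.37 ± 0.27. Hmox1 ranked 9 of 10 in EYFP IP, with 5.18 ± 0.25 CPM per kb (SD, n = 6), 8 in EYFP input and 7 in hTyr input. In hTyr IP it ranked 2, with 19.16 ± 10.75 CPM per kb (SD, n = 5; range 11.09 to 37.23). That range took in the means of its next neighbours Keap1 (16.71), Gsr (16.53), Gclc (16.36) and Txnrd1 (14.65), so their order did not exceed the spread. In both input groups and in EYFP IP, Srxn1 was followed by Keap1, Gsr, Gclc and Txnrd1 in this order. In EYFP IP Keap1 stood at 17.55 ± 0.44 and Gsr at 15.16 ± 0.98 without overlap of libraries, whereas Gsr, Gclc and Txnrd1 overlapped.

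The constitutive paralog Hmox2, the heme oxygenase that is abundant in neurons, did not follow Hmox1. Its level was 6.27 ± 0.11 in hTyr IP (SD, n = 5), 6.24 ± 0.12 in EYFP IP (SD, n = 6), 6.41 ± 0.13 in hTyr input (SD, n = 5) and 6.35 ± 0.06 in EYFP input (SD, n = 6). The libraries of the 2 treatments overlapped in both RNA sources. Blvra and Blvrb, the biliverdin reductases that act after heme oxygenase, were 0.92 (SE 0.11; limma adjusted p = 4.36e-06) and 0.52 (limma adjusted p = 0.000175) higher in EYFP IP than in input, and did not pass between treatments. Bach1, the heme-sensing repressor, stood at 3.83 ± 0.02 in hTyr IP (SD, n = 5) and 3.74 ± 0.20 in EYFP IP (SD, n = 6).

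Of the other genes of the pathway, 4 lists were examined, and their counts are to be read against the shares over all genes. Between treatments, 0.0556% of all genes passed in IP and 0.00794% in input. At such shares 0 is the likely count in lists of these sizes, and nothing is read from it. An unadjusted p under 0.05 was reached by 363 genes higher and 417 lower in IP, and by 125 and 257 in input, of all 12596. Of 37 further NRF2 targets in the table (47 written), 0 passed between hTyr and EYFP in IP in limma (3 at an unadjusted p under 0.05, 0 by voom) and 0 in input (0 unadjusted, 0 by voom). Of these targets 22 had a positive and 15 a negative difference in IP, with a median of 0.03. Between EYFP IP and input, 21 of 37 were higher and 5 lower, against 28.5% and 28.1% of all genes, with a median of 0.33 beside -0.03 over all genes. The genes with the largest differences were Akr1b3, an aldo-keto reductase (1.06, SE 0.10; limma adjusted p = 1.06e-06), Idh1, the cytosolic isocitrate dehydrogenase that makes NADPH (0.96, SE 0.09; limma adjusted p = 9.13e-07), and Pgd of the pentose phosphate pathway (0.93, SE 0.10; limma adjusted p = 1.87e-06). In hTyr 19 were higher and 5 lower, against 27.4% and 27.0% of all genes, with a median of 0.31 beside -0.04, led by Akr1b3 (1.27) and Idh1 (1.17). The ferritin heavy chain Fth1, which stores iron, was lower (-0.97, SE 0.14; limma adjusted p = 1.99e-05).

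Of 20 regulators in the table (22 written), 0 passed between hTyr and EYFP in IP in limma (2 unadjusted, 0 by voom) and 0 in input (1 unadjusted, 0 by voom). In EYFP IP against input 3 were higher and 8 lower, with a median of -0.08, and the 11 that passed in either direction were near the share over all genes (56.5%). Cul3 was 1.12 higher (SE 0.10; limma adjusted p = 6.88e-07), whereas Bach2 and the small MAF gene Mafg were lower (both -0.66; limma adjusted p = 0.00156 and 2.68e-05), as was Nfe2l1, the NRF2 paralog (-0.40; limma adjusted p = 0.000356). In hTyr 4 were higher and 5 lower, against 27.4% and 27.0% of all genes, with a median of -0.05. Cul3 was 1.36 higher, the small MAF gene Maff 1.04 higher (SE 0.25; limma adjusted p = 0.00242) and Bach2 was lower (-0.63; limma adjusted p = 0.00941).

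Of 17 genes of heme synthesis, transport and breakdown in the table (20 written), 0 passed between hTyr and EYFP in IP or input in limma, 0 at an unadjusted p under 0.05 and 0 by voom. In EYFP IP against input 8 were higher and 4 lower, against 28.5% and 28.1% of all genes, with a median of 0.12, led by Blvra, the exporter Abcg2 (0.74; limma adjusted p = 0.000195) and the synthesis enzyme Urod (0.57; limma adjusted p = 7.86e-06). In hTyr 7 were higher and 2 lower, against 27.4% and 27.0%, with a median of 0.15. The heme transporter Slc48a1 was lower there (-0.55, SE 0.09; limma adjusted p = 7.73e-05). Of 26 genes of glutathione and thioredoxin metabolism in the table (27 written), 0 passed between treatments in IP in limma (3 unadjusted, 0 by voom) and 0 in input (0 unadjusted, 0 by voom). In EYFP IP against input 9 were higher and 6 lower, near the share over all genes in either direction (56.5%), with a median of 0.14, led by the thioredoxin-like Txnl1 (0.73; limma adjusted p = 1.25e-06), the reductase Txnrd3 (0.69; limma adjusted p = 0.000417) and Gss. In hTyr 9 were higher and 5 lower, near that share too (54.4%), with a median of 0.18, led by Txnl1 (0.94) and the esterase Esd (0.76). The lists share some genes, such as Mafg, Esd and Slc48a1.

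The genes whose pattern was most like that of Hmox1 were ranked by Pearson's r of log2 CPM over all 22 libraries, as a description. Genes of the same libraries share depth, pulldown and marker content. Hmox1 stood highest in the hTyr IP libraries, so a ranking by r with it favours genes that are high there too. Their levels by group are given as a description, and nothing is read from them. The highest were Sdf2l1 (r = 0.937), a chaperone complex member of the endoplasmic reticulum, Tes (0.91), a focal adhesion protein, Adcyap1 (0.887), which encodes the neuropeptide PACAP, Atf3 (0.883), a stress-induced transcription factor, Tnfrsf12a (0.877), the TWEAK receptor, and Dok5 (0.875), an adaptor protein. The other 9 genes were left out of this ranking beforehand, so their absence says nothing. None of the genes named here is in the 4 lists. Sdf2l1 stood at 6.60, 6.41, 5.55, 5.76 and 5.62 in hTyr IP animals IP_501, IP_502, IP_508, IP_509 and IP_510, against 4.11 to 4.82 in EYFP IP, 4.27 to 4.61 in hTyr input and 4.24 to 4.89 in EYFP input. Its hTyr IP libraries were thus above all others, a pattern that the ranking itself favours. Atf3 was lower in level, at 3.56, 3.49, 2.60, 2.86 and 3.50 in the same animals and between 1.11 and 2.43 in EYFP IP.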

How the data were processed

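RNA was sequenced from 22 libraries of 11 mice. Per the submitters' processing notes, STAR, featureCounts and the build mm10 were used, in versions and settings not given in the sources used here. The authors deposited log2 CPM values for 12596 genes, with the filter and normalization not given in the sources used here. All values came out as whole reads (100% within 0.05 reads), which gave each library's depth. On the deposited log2 values, linear models with moderated variances that follow a mean-variance trend (limma 3.58.1 in R 4.3.3) were fitted over all genes, with Benjamini-Hochberg adjustment and a threshold of 0.05. hTyr was compared with EYFP in IP and in input, IP with input in each treatment, and the treatment effect in IP with that in input. Alternatives were no trend, quantile normalization, median centring, a pseudocount of 5 CPM, only the 75% of genes highest by mean, one spread over all libraries, voom in limma on the recovered reads, the animal as replicate block, and leaving out each animal or the 2 hTyr animals highest for Hmox1 in IP.

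IP and input libraries of one number come from one animal, per the labels. Deviations from group means correlated within animals (mean r = 0.448, range 0.279 to 0.626). The mean between animals was -0.0428, but taking deviations from group means by itself holds that value near or below 0. The labels give separate animals as replicates. The test was checked on counts simulated with a single setting of spread for all genes and both treatments. That check did not cover unequal spreads such as that of Hmox1 in IP. The members and lists were chosen with earlier results of these data known. The genes named were the 10 members, 9 partners or paralogs and the 6 genes outside the members most like Hmox1. Per list and comparison, up to 3 genes past the threshold with the largest change were added. Positions and exon lengths are from GENCODE M21 on mm10 (lengths matched by symbol for 96.1% of genes), and promoter sequences from RefSeq (GRCm38.p6). Figures were drawn with matplotlib 3.10.9 in Python 3.11.15.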

Additional observations from a re-analysis of the deposited data

Results flagged for a closer look

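In 3 of the 40 sets of values examined (10 genes in 4 groups), one library lay farther from the rest of its group than Dixon's limit for that group size, and chance alone gives about 1 in 20 such sets. Hmox1 in EYFP input was low in animal IP_504, at 2.65 (127 reads) with the next library at 3.02, a gap of 0.657 of the group's range. Nqo1 in hTyr IP was low in animal IP_501, at 3.47 (192 reads) with the next at 3.92, a gap of 0.725 of the range. Gclm in EYFP input was high in animal IP_511, at 6.07 (1471 reads) with the next at 5.87, a gap of 0.78 of the range.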

How the results depend on the processing

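Over the 10 genes, 840 values were recomputed under alternatives, of which 779 kept their direction and their side of the threshold, 47 changed sign and 14 changed side. Of the 14, 7 were lost and 7 gained. The limits are few reads for Hmox1 (127 to 228 per library outside hTyr IP), small groups, and treatment differences of most other genes close to 0. The cause of each change was not tested, except where fewer genes or animals were fitted. The alternative without animals IP_501 and IP_502 was chosen after seeing the data.

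For hTyr against EYFP in IP, 1 of the 10 genes passed, and 0 among the upper 75% of genes by mean level, a filter that leaves out Hmox1 itself. Over all genes 7 passed, 14 with one spread over all libraries, 2 without animals IP_501 and IP_502, and 3 to 11 when one animal was left out (4 without IP_501, 3 without IP_502, 11 without IP_508, 3 without IP_509, 4 without IP_505, and 3 without IP_506, IP_511 or IP_512). With one animal left out, the difference of Hmox1, whose level here chose it, ran from 1.45 to 1.89. For hTyr against EYFP in input, 1 gene passed over all genes, 0 with one spread, 0 without IP_501 and IP_502, and 0 to 2 with one animal left out (2 without IP_509, 1 without IP_504 and 0 without any other single animal). For the difference of the treatment effects, 0 of the 10 genes and 1 of all genes passed. The calls of Hmox1 here use the libraries that chose it, and nothing is read from them. With the replicate block the counts were 1 (Hmox1) and 5. With one animal left out the counts were 0 to 1 (Hmox1, without IP_501, IP_508 or IP_510) and 0 to 5 (2 without IP_501, 0 without IP_502, 2 without IP_508, 5 without IP_510, 0 without IP_512), and without IP_501 and IP_502 the count over all genes was 0. The block changed no other call of the 10 genes.

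Signs changed as follows. In IP, without IP_501 and IP_502, Nfe2l2 was 0.057 and Slc7a11 0.11 for hTyr minus EYFP. In input, Slc7a11 and Gclc were 0.041 and 0.013 after quantile normalization and 0.022 and 0.024 after median centring, and Slc7a11 was 0.0014 with a pseudocount of 5 CPM. In input without IP_501 and IP_502, Txnrd1 was -0.014, Nfe2l2 0.09, Srxn1 -0.028, Slc7a11 0.17, Gsr -0.047 and Keap1 -0.018. For IP against input in hTyr, Gclm was 0.0015 by voom, and for the difference of effects without IP_501 and IP_502 it was -0.025. With one animal left out, the differences in IP ran from -0.17 to 0.011 for Slc7a11 and from -0.071 to 0.15 for Nqo1. In input they ran from -0.0054 to 0.087 for Srxn1, -0.11 to 0.1 for Slc7a11, -0.0046 to 0.097 for Gsr, -0.13 to 0.11 for Nqo1, -0.01 to 0.075 for Keap1 and -0.033 to 0.033 for Gclc. For IP against input in hTyr, Gclm ran from -0.046 to 0.027. The difference of effects ran from -0.064 to 0.054 for Nfe2l2, -0.14 to 0.0022 for Slc7a11 and -0.11 to 0.22 for Nqo1.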
